A study of Homo sapiens with 5 samples.

Results

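The collagen genes are the gene rows whose symbol has the form COL, a number, A and a number, which are the symbols of the collagen alpha chains. This pattern found 44 of the 36601 genes in the count table of the 80% portion. The 44 genes held 82998 RNA molecules counted by their unique molecular identifiers (UMIs), which was 0.0870% of the 95455518 UMIs of the portion. All 44 had at least 1 UMI. Of these, 30 had at least 100 UMIs and 14 had fewer, and only the former were compared between groups of nuclei.

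Cells of 5 human lung adenocarcinoma lines (H2228, H1975, A549, H838 and HCC827), which are cultured tumour lines with no treatment named, were mixed in equal numbers before their nuclei were isolated. With the 10x Multiome assay, gene expression and chromatin accessibility (ATAC) were measured in the same nucleus under a shared barcode. The barcoded droplets were divided into an 80% and a 20% portion, with a single library per assay from each. No library was replicated, so no difference has a test, and the 20% portion is given as a second, smaller library of the same mixture. Intervals given here are exact 95% Poisson intervals for levels and exact 95% binomial intervals for shares, and they cover counting error only.

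Collagens are built from 3 alpha chains wound into a triple helix, and their type is named by the chains it holds. Fibrillar collagens form the fibrils of connective tissue and bone, the type IV chains form the network of basement membranes, and other types sit on fibrils, anchor the basement membrane or span the plasma membrane. In the lung, fibroblasts make most of the fibrillar collagen, whereas epithelial cells contribute chains of the basement membrane and transmembrane collagens such as COL17A1.

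The 6557 nuclei of the 80% portion held a median of 13306 UMIs and 8784 ATAC counts, and the 1286 nuclei of the 20% portion a median of 10541 UMIs. RNA clusters were made without the collagen genes, so that these genes did not draw the borders. One cluster of 130 nuclei, of which 129 were called doublets, was set aside, and 6 clusters with 6427 nuclei were kept. They stay numbered from 0 to 5 by size, since no line labels were used here. With 6 clusters from 5 lines, a cluster is not taken to be a line. Whether a difference between clusters lies between lines or within a line was not tested. Cluster 0 had 2387 nuclei and was led by MALAT1, cluster 1 had 1452 and was led by LDHB, and cluster 2 had 1408 and was led by ALDH1A1. Cluster 3 had 463 nuclei (HSP90AA1), cluster 4 had 388 (PVT1) and cluster 5 had 329 (EGFR). The leading gene is the gene outside the collagens with the largest excess in CPM (the UMIs of a gene scaled to a common total of the cluster) over the next cluster. MALAT1 was at 38090 CPM in cluster 0 and 34340 CPM in the next, and HSP90AA1 at 7857 and 4934 CPM. These genes thus set their clusters apart only weakly, whereas ALDH1A1 was at 5628 and 228 CPM and EGFR at 7222 and 470 CPM. The share of called doublets was 10.6% in both cluster 3 and cluster 4, 7.295% in cluster 5, 4.985% in cluster 0 and below 1% in the others (0.620% and 0.994%). There were 159 barcodes called in both portions, 2.425% of those in the 80% portion and 12.4% of those in the 20% portion. ALDH1A1 stood at 1.565% to 4.05% of its level in the clusters outside its own, and EGFR at 1.09% to 6.51%, or 1.39% to 1.58% and 0.999% to 6.07% without called doublets. A collagen level at or below 6.51% of the gene's highest cluster is therefore not read as expression, although EGFR may itself be expressed in other clusters. This limit was taken from genes of clusters 2 and 5, and was not checked for genes highest in other clusters. COL1A1 and COL6A1 in cluster 2, at 7.27% and 7.16%, lie just above it. Of the 30 compared collagen genes 16 had at least 1 cluster at or below the limit. It holds also for levels listed below without a remark. Examples are COL9A3 in clusters 0, 2 and 5, COL12A1 and COL13A1 in cluster 2, COL5A2 in cluster 1 and COL4A5 in cluster 3.

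All 6 clusters held epithelial keratins. The summed level of EPCAM, CDH1, KRT7, KRT8, KRT18 and KRT19 ranged from 1675 CPM in cluster 1 to 10870 CPM in cluster 2. EPCAM and CDH1 did not follow this sum. EPCAM was at 692 CPM in cluster 3 and 759.5 CPM in cluster 5, against 23.8 to 113 CPM in the others. CDH1 was at 195 and 199.5 CPM in these clusters, against 4.86 to 47.8 CPM in the others. The defining fibroblast genes DCN and LUM had 3 and 15 UMIs in the whole portion, but the summed level of 7 fibroblast markers was 207 CPM in cluster 0 and 144 CPM in cluster 1, against 15.3 to 29.1 CPM elsewhere. FAP made up most of it in cluster 0, at 139 CPM. In cluster 1 the sum was mostly FBN1, at 102 CPM (66.4 CPM in cluster 0), and THY1, at 26.5 CPM. FAP and THY1 were at least 4-fold higher in 1 cluster than in the next. These are 2 of the 3 markers with at least 100 UMIs, against 5.96% of all such genes. Leukocyte markers (4 genes) summed to 13.4 to 46.3 CPM, almost all of it CD68, and endothelial markers (3 genes) to 1.475 to 14.55 CPM. Whether these markers have a part in the collagen levels was not tested.

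Several type IV genes lie head to head and share a start region, and their promoters are shown because the RNA of these pairs is compared with accessibility at that shared region. COL6A2 is shown as a gene that was 4-fold higher in one cluster, and COL5A1 because its start peak was nearly absent in one cluster. RefSeq promoter windows (GRCh38.p14, 250 bases before to 50 after the start) were at hand for 32 of the 44 genes, as 44 windows, and all 44 windows were identical to hg38. Each line is read 5′ to 3′ along the gene, and capitals mark the GC box, which is GGGCGG, the CCAAT box, which is CCAAT, and the TATA box, which is TATAAA. Each was searched on both strands, and matches of different boxes may overlap.
COL4A1, chr13:110307108-110307407, minus strand: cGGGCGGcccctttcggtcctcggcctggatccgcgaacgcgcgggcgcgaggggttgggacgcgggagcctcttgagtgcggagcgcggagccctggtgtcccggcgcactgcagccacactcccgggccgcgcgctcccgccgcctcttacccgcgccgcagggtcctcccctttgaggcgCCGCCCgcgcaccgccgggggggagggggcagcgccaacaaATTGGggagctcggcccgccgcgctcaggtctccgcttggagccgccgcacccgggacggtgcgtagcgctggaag
COL4A3, chr2:227164374-227164673, plus strand: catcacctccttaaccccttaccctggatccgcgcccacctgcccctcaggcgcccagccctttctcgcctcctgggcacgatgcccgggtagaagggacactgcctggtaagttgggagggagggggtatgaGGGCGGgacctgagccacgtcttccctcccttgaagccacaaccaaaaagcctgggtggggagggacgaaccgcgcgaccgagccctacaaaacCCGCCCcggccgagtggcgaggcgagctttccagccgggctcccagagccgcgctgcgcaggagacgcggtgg
COL4A5, chrX:108439588-108439887, plus strand: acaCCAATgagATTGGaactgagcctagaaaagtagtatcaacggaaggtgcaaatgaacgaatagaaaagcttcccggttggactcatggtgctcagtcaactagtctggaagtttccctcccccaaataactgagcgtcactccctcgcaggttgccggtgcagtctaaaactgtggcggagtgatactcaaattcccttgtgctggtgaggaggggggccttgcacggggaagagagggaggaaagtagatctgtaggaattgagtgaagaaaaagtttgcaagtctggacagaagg
COL5A1, chr9:134641553-134641852, plus strand: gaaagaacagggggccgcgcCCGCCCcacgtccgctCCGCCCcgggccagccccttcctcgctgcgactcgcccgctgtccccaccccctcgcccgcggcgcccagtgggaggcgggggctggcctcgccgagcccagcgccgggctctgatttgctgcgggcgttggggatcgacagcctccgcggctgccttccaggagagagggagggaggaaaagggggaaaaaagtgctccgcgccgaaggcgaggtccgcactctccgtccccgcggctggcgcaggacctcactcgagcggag
COL6A2, chr21:46097862-46098161, plus strand: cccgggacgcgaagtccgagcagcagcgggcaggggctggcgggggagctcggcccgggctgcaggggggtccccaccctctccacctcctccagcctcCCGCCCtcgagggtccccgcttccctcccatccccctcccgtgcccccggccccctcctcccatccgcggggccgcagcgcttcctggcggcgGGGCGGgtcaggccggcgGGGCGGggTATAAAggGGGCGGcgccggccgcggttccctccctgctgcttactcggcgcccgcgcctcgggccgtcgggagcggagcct

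The start of COL4A2 lies 127 bases from that of COL4A1, the start of COL4A4 lies 419 bases from that of COL4A3, and the nearest start of COL4A6 lies 380 bases from that of COL4A5. The windows of COL4A1 and COL4A2 share 226 bases. GC boxes were found in 24 of the 44 collagen windows (54.5%) and in 45.0% of all 35116 promoter windows. CCAAT boxes were found in 14 collagen windows (31.8%) and in 34.6% of all. TATA boxes were found in 8 collagen windows (18.2%) and in 11.5% of all. Of the 5 windows shown, only that of COL6A2 held a TATA box, and that of COL4A5 held no GC box but 2 CCAAT boxes. A match describes letters in these windows only. All 5 windows lay wholly inside an ATAC peak of the 80% portion.

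The summed collagen level differed between clusters. It was 1104 CPM (1094 to 1114) in cluster 0, 1098 CPM (1072 to 1124) in cluster 4, 829 CPM (814 to 845) in cluster 2, 655 CPM (643 to 666) in cluster 1, 440.4 CPM (426.5 to 454.5) in cluster 3 and 392 CPM (374 to 410) in cluster 5. Clusters 0 and 4 did not differ beyond their intervals, and the other neighbours in this order did. The levels of the 20% portion were 1141, 1322, 848, 674, 418 and 387 CPM in the same order, and cluster 4 was then above cluster 0. After each nucleus had been thinned to 5000 UMIs, a nucleus held a mean of 5.55 collagen UMIs in cluster 0, 5.70 in cluster 4, 4.08 in cluster 2, 3.21 in cluster 1, 2.01 in cluster 3 and 1.91 in cluster 5. A nucleus of cluster 0 showed a median of 4 different collagen genes at that depth, and a nucleus of cluster 3 or 5 showed 1. No collagen UMI was seen in 1.86% of the thinned nuclei of cluster 0 and in 25.2% of those of cluster 3.

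Clusters also differed in the kind of collagen. The fibrillar genes, the chains of types I, II, III, V, XI, XXIV and XXVII, made up 55.8% of the collagen UMIs of cluster 4 and 43.1% of those of cluster 0, but 15.3% in cluster 1. The network-forming genes, the chains of types IV, VIII and X, made up 61.9% in cluster 2, where they reached 514 CPM, and 16.6% in cluster 3. The genes of type VI and XXVIII, of which type VI builds beaded filaments, reached 277 CPM in cluster 0 and 22.6 to 79.5 CPM in the others. The fibril-associated genes, which bind to the surface of fibrils, reached 181 CPM in cluster 1 and 114 CPM in cluster 4, against 16.8 to 48.4 CPM in the others. The 4 genes with the most UMIs, COL1A1, COL4A5, COL5A1 and COL6A1, held 49.2% of all collagen UMIs. By UMIs, the leading gene was COL1A1 in cluster 0 (22.6% of the collagen UMIs), COL12A1 in cluster 1 (21.8%), COL4A5 in clusters 2 (28.5%) and 5 (18.5%), and COL5A1 in clusters 3 (16.4%) and 4 (31.85%). Per 100 kb of gene span, a scale that allows for gene length but was not checked against how UMIs arise, COL1A1 had the highest level in every cluster except cluster 5. It was at 1423 CPM per 100 kb in cluster 0, and in cluster 5 COL6A1 stood at 127 and COL1A1 at 125 CPM per 100 kb.

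**Figure D1:**
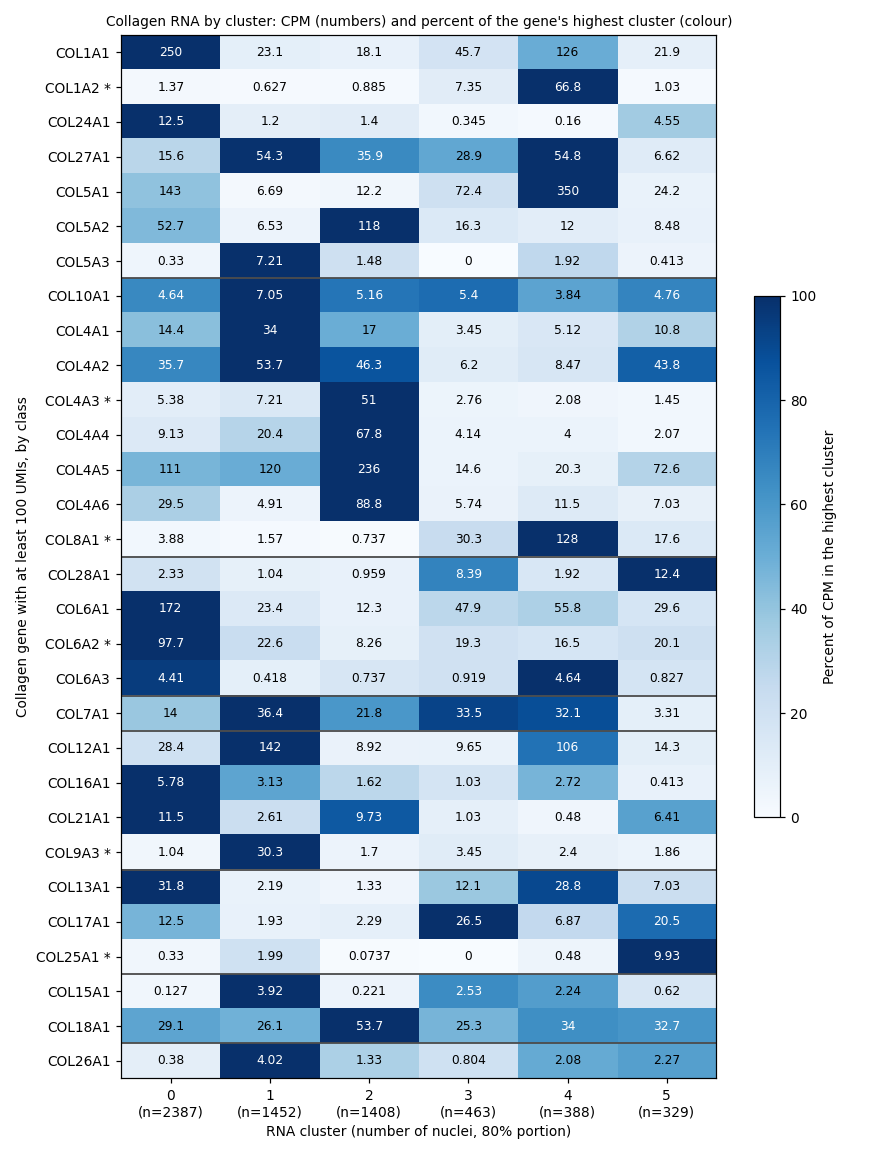
RNA level of the 30 collagen genes with at least 100 UMIs (rows, grouped by class) in 6 RNA clusters of the 80% portion (columns, with the number of nuclei). Numbers are CPM, the colour is the percent of the gene's highest cluster, and a star marks the 6 genes at least 4-fold higher in one cluster than in the next. Dark cells lie mostly in clusters 0, 1, 2 and 4, and cluster 3 is the highest for COL17A1 alone.

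Of the 30 compared genes, 6 were at least 4-fold higher in one cluster than in any other (with at least 3 UMIs assumed in the lower cluster). These were COL6A2 in cluster 0, COL9A3 in cluster 1, COL4A3 in cluster 2, COL1A2 and COL8A1 in cluster 4 and COL25A1 in cluster 5. Over all 16913 genes with at least 100 UMIs the share was 5.96%, or 1008 genes. The median ratio of the highest to the next cluster was 1.97 over the 30 collagen genes and 1.26 over all 16913 genes. The highest cluster was cluster 1 for 9 collagen genes, cluster 0 for 7, cluster 2 for 6, cluster 4 for 5, cluster 5 for 2 and cluster 3 for 1. Over all 16913 genes the shares were 22.96%, 19.5%, 17.9%, 13.0%, 12.7% and 13.95% in the same order. Of the 6 genes, 5 were also at least 4-fold higher in the same cluster of the 20% portion, and COL25A1 was not.

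COL25A1, a transmembrane collagen with a gene at chr4:108808725-109302752, showed that call only through a single nucleus. It had 48 UMIs in cluster 5, of which 45 lay in 1 nucleus with 11467 UMIs in all that had not been called a doublet. Only 4 of the 329 nuclei of that cluster had any UMI of it, and without this nucleus the highest cluster was cluster 1, with a ratio of 3.19. COL25A1 of the 20% portion had no UMI in cluster 5 (0 of 55 nuclei) and 14 UMIs in cluster 1. For the other 5 genes the largest nucleus held 8.85% or less of the UMIs in the highest cluster, and each stayed above 4-fold without it, with COL8A1 lowest at 4.10.

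**Figure D2:**
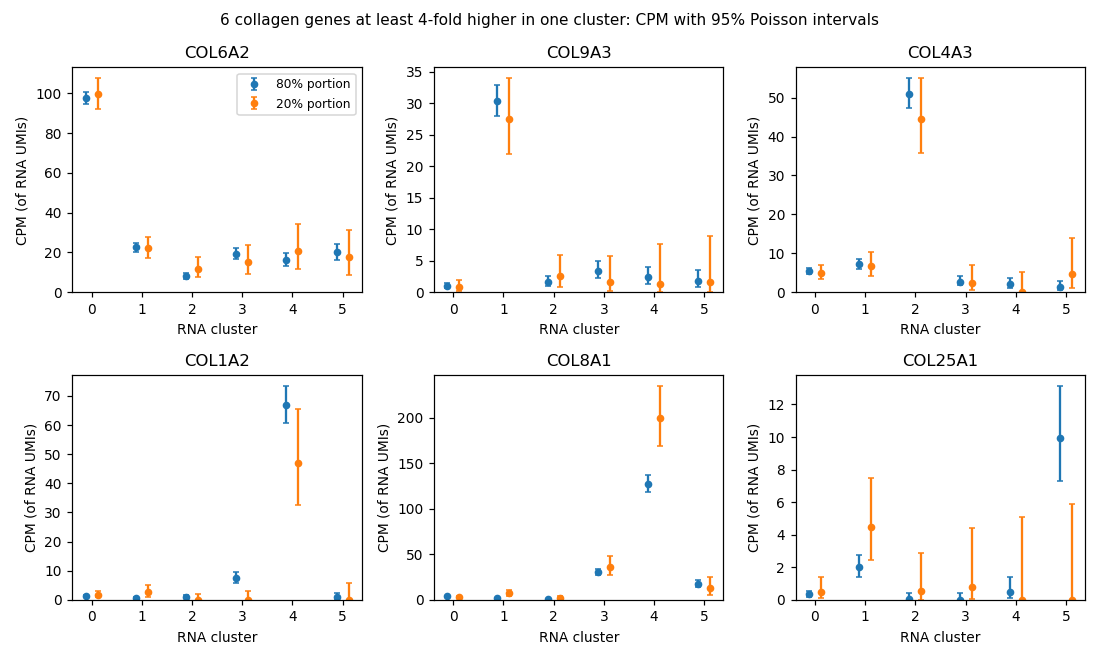
CPM of the 6 collagen genes that were at least 4-fold higher in one cluster of the 80% portion, in each RNA cluster (x axis) of the 80% portion (blue) and the 20% portion (orange), with exact 95% Poisson intervals. COL6A2, COL9A3, COL4A3, COL1A2 and COL8A1 have their highest point in the same cluster in both portions, whereas COL25A1 has it in cluster 5 in one and in cluster 1 in the other.

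Among the fibrillar genes, the chains of type I collagen did not go together. COL1A1 (chr17:50184101-50201632) encodes the alpha 1 chain, of which the usual type I molecule holds a pair beside 1 alpha 2 chain. Its level was 249.5 CPM (244.6 to 254.5) in cluster 0, 126 CPM (118 to 135) in cluster 4, 45.7 CPM in cluster 3, 23.1 CPM in cluster 1, 21.9 CPM in cluster 5 and 18.1 CPM in cluster 2. The intervals of clusters 0, 4 and 3 overlapped with no other, and that of cluster 5 overlapped with those of clusters 1 and 2. COL1A1 was seen in 83.8% of the nuclei of cluster 0 (82.2 to 85.2), which had a median of 15248 UMIs, and in 16.0% of those of cluster 2, which had a median of 9042. Thinned to 5000 UMIs per nucleus the shares were 58.1% and 9.08%.

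COL1A2 (chr7:94394895-94431227), the gene of the alpha 2 chain, was instead at 66.8 CPM (60.6 to 73.5) in cluster 4. This level depends on how finely the nuclei are divided, since with 5 clusters in place of 6 (a resolution of 0.05, chosen after seeing the data) the highest level of COL1A2 was 33.7 CPM. It was at 7.35 CPM in cluster 3, 1.37 CPM in cluster 0, 1.03 CPM in cluster 5, 0.885 CPM in cluster 2 and 0.627 CPM in cluster 1. The levels outside clusters 3 and 4 were 0.938% to 2.05% of that of cluster 4. None was above the range of ALDH1A1 outside its own cluster, 1.565% to 4.05%. This holds for cluster 0, which had the most COL1A1. In the 20% portion COL1A2 was at 47.0 CPM in cluster 4 (34 UMIs), at 2.56 CPM or less in clusters 0 and 1, and without a UMI in clusters 2, 3 and 5. The level in cluster 3 was thus not seen again in the 20% portion, where the interval reached up to 2.92 CPM.

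The 418 UMIs of COL1A2 in cluster 4 came from few nuclei. Of its 388 nuclei 70 (18.0%, 14.3 to 22.2) had a UMI and 29 had at least 5, and the 10% of nuclei with the most held 88.3% of the UMIs. COL5A1, by contrast, was seen in 349 of these nuclei and the 10% with the most held 27.7%. After thinning, the variance of COL1A2 per nucleus was 4.05 times its mean, against 1.63 for COL5A1 and 2.33 for COL8A1. The share of nuclei with COL1A2 was 19.4% (13.1 to 27.1) among those of cluster 4 with COL1A1 and 11.6% (7.83 to 16.3) among those without, so the intervals overlapped. At that depth COL8A1 was seen in 33.3% (21.1 to 47.5) of the nuclei with COL1A2. Of those without, 36.3% (31.1 to 41.85) had it, again with overlap. Fibroblast markers were not high in cluster 4, where FAP was at 6.71 CPM, FBN1 at 15.0 CPM, THY1 at 1.28 CPM and DCN at 0. PDGFRB, with 52 UMIs in all, was the exception, at 5.755 CPM there and 0.460 CPM or less in the others, and at 2.76 CPM in cluster 4 of the 20% portion.

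**Figure D3:**
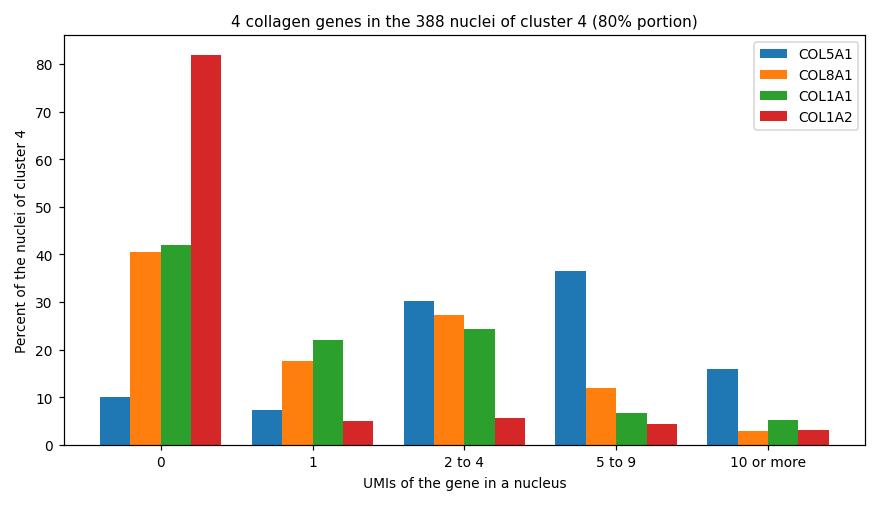
Share of the 388 nuclei of cluster 4 (y axis, percent) with 0, 1, 2 to 4, 5 to 9 or at least 10 UMIs (x axis) of COL5A1, COL8A1, COL1A1 and COL1A2 in the 80% portion, not thinned. COL1A2 is at 0 in 82.0% of the nuclei and COL5A1 in 10.1%, and 3.09% of the nuclei have at least 10 UMIs of COL1A2.

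COL5A1 and COL5A2 encode the 2 main chains of type V collagen, a minor fibrillar collagen that helps to start fibrils. COL5A1 (chr9:134641803-134844843) was at 350 CPM (335 to 365) in cluster 4, 143 CPM (139 to 147) in cluster 0, 72.4 CPM in cluster 3, 24.2 CPM in cluster 5, 12.2 CPM in cluster 2 and 6.69 CPM in cluster 1. With 5 clusters the highest level was 190.1 CPM. No 2 of the intervals over the 6 clusters overlapped, and the levels in clusters 1 and 2 were 1.91% and 3.50% of the highest. COL5A2 (chr2:189031898-189225312) was at 118 CPM in cluster 2, 52.7 CPM in cluster 0, 16.3 CPM in cluster 3, 12.0 CPM in cluster 4, 8.48 CPM in cluster 5 and 6.53 CPM in cluster 1. The clusters with the most COL5A1 and the most COL5A2 were therefore different, and only cluster 0 had both above 50 CPM. The third chain, COL5A3, had 194 UMIs and was at 7.21 CPM in cluster 1 and at 1.92 CPM or less in the others, with none in cluster 3. The 20% portion again had COL5A1 highest in cluster 4 (439 CPM) and COL5A2 in cluster 2 (122 CPM).

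The type V chains were also compared within clusters. At 5000 UMIs per nucleus COL5A2 was seen in 24.4% (21.9 to 27.0) of the nuclei of cluster 0 with COL5A1 and in 18.4% (16.3 to 20.7) of those without. In cluster 2 the shares were 51.8% (38.0 to 65.3) and 35.7% (33.1 to 38.4), and in cluster 4 they were 4.88% and 6.74%, with overlapping intervals in both clusters. In the same way COL5A1 was seen in 52.4% (49.8 to 55.1) of the nuclei of cluster 0 with COL1A1 and in 40.2% (37.2 to 43.4) of those without. In the other clusters the intervals of this last pair overlapped.

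Of the remaining fibrillar genes only COL27A1 had more than 1000 UMIs. COL27A1, a fibrillar chain known from cartilage, was at 54.8 CPM in cluster 4, 54.3 CPM in cluster 1, 35.9 CPM in cluster 2, 28.95 CPM in cluster 3, 15.6 CPM in cluster 0 and 6.62 CPM in cluster 5, and its 2 highest clusters did not differ. COL24A1 had 572 UMIs and its highest level, 12.5 CPM, in cluster 0. COL3A1 (6 UMIs), COL2A1 (5), COL11A1 (22) and COL11A2 (19) were near 0 in the whole portion. COL3A1, the chain of type III collagen that accompanies type I in most soft tissue, thus was near 0 also in the clusters with high COL1A1.

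Type IV chains made cluster 2 stand out. COL4A1 and COL4A2 belong to nearly all basement membranes, COL4A3, COL4A4 and COL4A5 build a network known from the lung alveolus and the kidney glomerulus, and COL4A5 pairs with COL4A6 in other epithelia. COL4A3 (chr2:227164624-227314792) was at 51.0 CPM (47.3 to 55.0) in cluster 2, 7.21 CPM in cluster 1, 5.38 CPM in cluster 0, 2.76 CPM in cluster 3, 2.08 CPM in cluster 4 and 1.45 CPM in cluster 5, a ratio of 7.08 to the next. COL4A4 (chr2:227002714-227164453) was at 67.8 CPM in cluster 2, 20.4 CPM in cluster 1, 9.13 CPM in cluster 0, 4.14 CPM in cluster 3, 3.997 CPM in cluster 4 and 2.07 CPM in cluster 5, a ratio of 3.33. Their order over clusters 2, 1 and 0 was the same in both portions, although the intervals of COL4A3 in clusters 1 and 0 overlapped. In clusters 3, 4 and 5 both were at or below 6.51% of their highest level, and these are not ranked. The ratio of COL4A4 to COL4A3 lay between 1.33 in cluster 2 and 2.83 in cluster 1. In the 20% portion it lay between 0.667 in cluster 3 (2 and 3 UMIs) and 3.05 in cluster 1, and cluster 4 had no UMI of either.

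COL4A5 (chrX:108439838-108697545) was at 236.5 CPM (228.4 to 244.9) in cluster 2, 120 CPM in cluster 1, 111 CPM in cluster 0, 72.6 CPM in cluster 5, 20.3 CPM in cluster 4 and 14.6 CPM in cluster 3. COL4A6 (chrX:108155607-108439497) was at 88.8 CPM in cluster 2, 29.5 CPM in cluster 0, 11.5 CPM in cluster 4, 7.03 CPM in cluster 5, 5.74 CPM in cluster 3 and 4.91 CPM in cluster 1. This pair did not keep 1 ratio. COL4A6 was at 0.0409 of COL4A5 in cluster 1 and at 0.375 in cluster 2, and in the 20% portion at 0.0380 and 0.417. In cluster 1 COL4A6 was at 5.53% of its highest cluster and COL4A5 at 50.7%.

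COL4A1 (chr13:110148963-110307157) was at 34.0 CPM in cluster 1, 17.0 CPM in cluster 2, 14.4 CPM in cluster 0, 10.8 CPM in cluster 5, 5.12 CPM in cluster 4 and 3.45 CPM in cluster 3. COL4A2 (chr13:110305812-110513209) was at 53.7, 46.3, 35.7, 43.8, 8.47 and 6.204 CPM in the same clusters. Clusters 3 and 4 were thus the lowest for COL4A1, COL4A2 and COL4A5. COL4A3 and COL4A4 were at or below 6.51% of their highest level in clusters 3, 4 and 5, and COL4A6 in clusters 1 and 3. The spans of COL4A1 and COL4A2 overlap at their starts by annotation, so reads there could be counted for either gene, and the sources used here do not say whether the counting used strand.

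Detection of head-to-head partners in the same nuclei was compared as well. At 5000 UMIs per nucleus COL4A6 was seen in 41.8% (38.2 to 45.4) of the nuclei of cluster 2 with COL4A5 and in 15.1% (12.37 to 18.1) of those without. COL4A4 was seen in 36.9% (31.2 to 42.8) of the nuclei of cluster 2 with COL4A3 and in 25.3% (22.75 to 28.0) of those without. COL4A2 was seen in 28.3% (21.45 to 36.0) of the nuclei of cluster 0 with COL4A1 and in 14.2% (12.8 to 15.8) of those without, but in cluster 1, where both genes were highest, the shares were 23.6% and 23.2%. In all, 10 pairs of genes were looked at in this way, most of them in several clusters, and not every cluster is given. Called doublets within the clusters were kept.

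COL8A1 (chr3:99638475-99799226), a chain of the short-chain type VIII collagen, was at 128 CPM (119 to 137) in cluster 4, 30.3 CPM in cluster 3, 17.6 CPM in cluster 5, 3.88 CPM in cluster 0, 1.57 CPM in cluster 1 and 0.737 CPM in cluster 2. Its ratio of 4.21 was close to the limit of 4, and with 5 clusters its highest level was 73.4 CPM. It was seen in 59.5% of the nuclei of cluster 4 (median 14484 UMIs) and in 0.568% of those of cluster 2 (median 9042), and at 5000 UMIs in 35.9% and 0.2905%. Its usual partner COL8A2 had 28 UMIs in the whole portion. COL8A1 was at 200 CPM (169 to 236) in cluster 4 of the 20% portion, above the interval of the 80% portion.

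Among the beaded filament genes, COL6A1 and COL6A2 were both highest in cluster 0. They encode 2 of the 3 chains of the usual type VI molecule and lie near each other on chromosome 21. COL6A1 (chr21:45981770-46005050) was at 172 CPM in cluster 0, 55.8 CPM in cluster 4, 47.9 CPM in cluster 3, 29.6 CPM in cluster 5, 23.4 CPM in cluster 1 and 12.3 CPM in cluster 2, a ratio of 3.08. COL6A2 (chr21:46098112-46132848) was at 97.7 CPM (94.6 to 101) in cluster 0, 22.6 CPM in cluster 1, 20.1 CPM in cluster 5, 19.3 CPM in cluster 3, 16.5 CPM in cluster 4 and 8.26 CPM in cluster 2, a ratio of 4.33. Both were lowest in cluster 2, where COL4A3, COL4A4, COL4A5 and COL4A6 were highest. At 5000 UMIs COL6A2 was seen in 41.9% (39.1 to 44.6) of the nuclei of cluster 0 with COL6A1 and in 31.6% (28.8 to 34.4) of those without. In the other clusters the intervals of these shares overlapped. COL6A3, the third chain, had only 248 UMIs and was at 4.64 CPM in cluster 4, 4.41 CPM in cluster 0 and 0.418 to 0.919 CPM in the other 4.

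Per 100 kb of span, in their highest clusters, COL6A1 was at 739, COL6A2 at 281 and COL6A3 at 5.13 CPM, so the third chain was far below the other two also on this scale.

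The fibril-associated genes were led by COL12A1 (chr6:75084326-75206267). It was at 142.5 CPM in cluster 1, 106 CPM in cluster 4, 28.45 CPM in cluster 0, 14.3 CPM in cluster 5, 9.65 CPM in cluster 3 and 8.92 CPM in cluster 2. It was seen in 1066 of the 1452 nuclei of cluster 1, and the 10% with the most held 32.5% of its UMIs. COL9A3 (chr20:62816244-62841159), a chain of the cartilage collagen type IX, was at 30.3 CPM (27.9 to 32.9) in cluster 1, 3.45 CPM in cluster 3, 2.40 CPM in cluster 4, 1.86 CPM in cluster 5, 1.70 CPM in cluster 2 and 1.04 CPM in cluster 0, a ratio of 8.79. It was seen in 29.3% of the nuclei of cluster 1 (median 12672 UMIs) and 1.35% of those of cluster 2, and at 5000 UMIs in 13.2% and 0.726%. Its partners COL9A1 and COL9A2 had 6 and 72 UMIs. COL21A1 (704 UMIs) was highest in cluster 0, at 11.5 CPM, where 276 of the 2387 nuclei had a UMI and 1 nucleus had 20.

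COL7A1, which forms the anchoring fibrils that tie the basement membrane to the tissue below, was at 36.35 CPM in cluster 1, 33.55 CPM in cluster 3, 32.1 CPM in cluster 4, 21.75 CPM in cluster 2, 14.0 CPM in cluster 0 and 3.31 CPM in cluster 5. The 3 highest levels did not differ beyond their intervals. COL18A1, the source of endostatin, was the most even of the abundant members, between 25.3 CPM in cluster 3 and 53.7 CPM in cluster 2. COL13A1, a transmembrane collagen, was at 31.8 CPM in cluster 0, 28.8 CPM in cluster 4, 12.1 CPM in cluster 3, 7.03 CPM in cluster 5, 2.19 CPM in cluster 1 and 1.33 CPM in cluster 2. COL17A1, the transmembrane collagen of hemidesmosomes, had 947 UMIs and was highest in clusters 3 (26.5 CPM) and 5 (20.5 CPM), whose intervals overlapped.

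The other members were low. COL10A1 (493 UMIs), a network-forming chain known from growth cartilage, was the most even of the 30, between 3.84 CPM in cluster 4 and 7.05 CPM in cluster 1. COL16A1 (349 UMIs) was highest in cluster 0 at 5.78 CPM, COL26A1 (146) and COL15A1 (130) in cluster 1 at 4.02 and 3.92 CPM, and COL28A1 (275) in cluster 5 at 12.4 CPM with 8.39 CPM in cluster 3. Of the 14 members with under 100 UMIs, COL23A1 had 91, COL6A6 46, COL14A1 42, COL20A1 and COL22A1 17 each, COL19A1 7 and COL6A5 1, beside the chains of types II, III, VIII, IX and XI named above. These 14 were not compared between clusters.

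Levels with enough counts in both portions were mostly close. Over 73 levels (24 genes) with at least 20 UMIs in both portions, the median absolute difference was 0.12 on the log2 scale, 65 levels lay within 1.5-fold and the intervals overlapped for 67 (91.8%). A level that fell below 20 UMIs in the 20% portion was left out, so these shares could not count it as a change. Examples are COL1A2 in cluster 3, with 64 UMIs against 0, and COL4A5 in cluster 3. The latter was at 14.6 CPM (12.2 to 17.4) against 4.755 CPM (1.745 to 10.35). How the left-out levels compare was not summarised. Among the 73 levels, the largest difference was that of COL8A1 in cluster 1. It was at 1.57 CPM (30 UMIs, at most 2 in a nucleus) in the 80% portion and 7.36 CPM (23 UMIs, of which 7 in 1 nucleus) in the 20% portion. In cluster 4, with 60 nuclei in the 20% portion, COL1A1 was at 126 CPM in the 80% and at 198 CPM in the 20% portion, where 1 nucleus held 34 of the 143 UMIs.

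**Figure D4:**
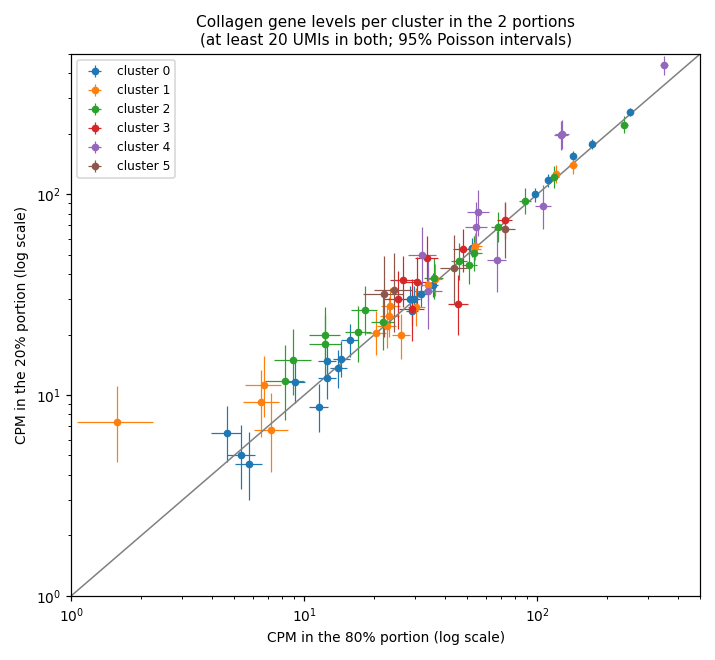
CPM of collagen genes per RNA cluster in the 80% portion (x axis) and the 20% portion (y axis), both on log scales, for the 73 levels with at least 20 UMIs in both, with exact 95% Poisson intervals and the line of equality. Most points lie on the line, and COL8A1 in cluster 1 is the point farthest above it.

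Accessibility at the gene starts was measured in the same nuclei. Peaks within 1000 bp of the annotated start interval were found for 33 of the 44 collagen genes, as 86 different peaks. Of the 57 with at least 100 ATAC counts 3 were at least 4-fold higher in one cluster (5.26%), against 5.51% of all 100354 peaks. These 3 peaks, of COL14A1, COL21A1 and COL23A1, lay 11957 to 65844 bp from the nearest single start, since the start intervals of these genes are wide. RNA and start peaks were highest in the same cluster for 9 of the 25 genes with enough counts of both (36.0%). Over all 15138 such genes the share was 47.3%, and the difference was not tested. The 9 were COL4A3, COL4A4, COL5A2, COL5A3, COL1A2, COL12A1, COL13A1, COL15A1 and COL16A1. Of these, COL4A3 and COL4A4 share 1 peak. Near ties decided some of the 25, since COL13A1 matched with ratios to the next cluster of 1.10 in RNA and 1.02 in ATAC. COL7A1, at 1.08 and 1.002, did not match. COL25A1 was counted as no match, with RNA highest in cluster 5 through 1 nucleus and its 6 start peaks together highest in cluster 1. Without that nucleus its RNA was also highest in cluster 1, but its peak nearest a single start (258 bp) was highest in cluster 0.

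The start of COL5A1 (peak chr9:134641180-134642074, which holds the promoter shown above) was least accessible in cluster 1. COL5A1 RNA there was at 1.91% of its highest level, which is not read as expression. The same holds for cluster 2, at 3.50%, where the start was more accessible than in clusters 3 and 5. ATAC levels are CPM of the counts in peaks of a cluster, and most ATAC counts were even numbers, so no interval is given. The peak was at 41.4 ATAC CPM in cluster 0, 35.7 in cluster 4, 21.0 in cluster 2, 15.0 in cluster 3, 13.3 in cluster 5 and 1.39 in cluster 1. In the 20% portion cluster 1 was again the lowest, at 2.95, against 17.1 to 53.0 in the others. Within the gene, however, 2 other peaks were highest in cluster 1. The peak chr9:134709344-134710202 was at 19.3 ATAC CPM there and at 2.17 or less elsewhere, a ratio of 8.89. The peak chr9:134661859-134662795 was at 34.3 in cluster 1 and 7.72 in cluster 4, a ratio of 4.45. Both were again highest in cluster 1 of the 20% portion, at 16.7 and 38.4.

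The start peak shared by COL4A3 and COL4A4 (chr2:227163904-227164789) was at 23.0 ATAC CPM in cluster 2, 6.51 in cluster 1, 5.94 in cluster 0, 5.11 in cluster 5, 2.28 in cluster 3 and 1.93 in cluster 4. Cluster 2 had the highest value of the peak and of both RNAs. A second peak of COL4A3, chr2:227308654-227309538, lies 61 bp from an annotated start of a shorter transcript near the end of the gene, and it was at 13.0 ATAC CPM in cluster 1 and at 1.93 or less elsewhere. Its highest cluster was thus not that of the COL4A3 RNA.

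The start peak shared by COL4A1 and COL4A2 (chr13:110306841-110307622) was at 9.35 ATAC CPM in cluster 0, 5.54 in cluster 1, 4.79 in cluster 2, 4.34 in cluster 5, 0.326 in cluster 3 and without a count in cluster 4. Clusters 3 and 4, with the least RNA of both genes, thus had the lowest values. In the 20% portion they were at 1.81 and 3.31 against 5.69 (cluster 5) to 18.7 in the others. Clusters 3, 4 and 5 held only 1107369, 603659 and 702661 ATAC counts there. Their values thus stand for a few counts each, and their order in that portion is not read. The peak shared by COL4A5 and COL4A6 (chrX:108439359-108440236) was at 13.0 in cluster 5, 8.37 in cluster 2, 7.39 in cluster 0, 4.91 in cluster 1, 1.45 in cluster 4 and 0.653 in cluster 3. Clusters 3 and 4 were again lowest, as for the RNA of COL4A5. A further start peak of COL4A6 (chrX:108437903-108438704) was at 5.08 in cluster 2, 3.81 in cluster 0, 2.04 in cluster 5 and 0.427 in cluster 1, and without a count in clusters 3 and 4. At this peak, unlike at the shared one, cluster 1 was low, as it was for the RNA of COL4A6. Both values are small, since the peak held 173 counts in all and the RNA was at 5.53% of its highest cluster.

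The start peak of COL7A1 was at 70.2 ATAC CPM in cluster 4, 70.1 in cluster 1, 34.75 in cluster 3, 33.6 in cluster 2, 17.6 in cluster 0 and 11.2 in cluster 5. Clusters 0 and 5 were the lowest for the peak and for its RNA. The start peaks of COL8A1 were at 20.1 in cluster 3, 18.8 in cluster 4, 10.2 in cluster 5, 5.22 in cluster 1, 5.00 in cluster 0 and 1.60 in cluster 2. Its RNA was also highest in clusters 4, 3 and 5. In clusters 0, 1 and 2 it was at 3.04% or less of its highest level, and these are not ranked. The sum is over 2 peaks that differed, with chr3:99636915-99637841 at 15.2 in cluster 3 and 7.48 in cluster 4, and chr3:99638217-99639127 at 4.89 and 11.3. The sums in the 20% portion were 29.8 in cluster 3 and 9.94 in cluster 4. Within the gene, the peak chr3:99776603-99777519 was at 12.55 in cluster 4 and 2.99 in the next, a ratio of 4.20.

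Other starts were open without such a match. The start peak of COL1A1 was at 55.5 ATAC CPM in cluster 4, 54.1 in cluster 2, 53.9 in cluster 0, 35.6 in cluster 3, 35.2 in cluster 5 and 27.0 in cluster 1. Cluster 2, with the lowest COL1A1 RNA, was thus among the highest for its start. The start peak of COL6A1 ranged from 10.1 in cluster 3 to 17.3 in cluster 1, and its RNA was highest in cluster 0. COL9A3, with 580 UMIs in cluster 1, had no peak within 1000 bp of the start interval in the peak annotation, although 5 peaks lay near starts of its GENCODE transcripts. The start peak of COL1A2 held 173 counts in all and was highest in cluster 4 (7.96) and next in cluster 3 (5.38), in the order of its RNA. In the 20% portion this order was not kept, with 18.1 in cluster 3 and 8.28 in cluster 4.

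**Figure D5:**
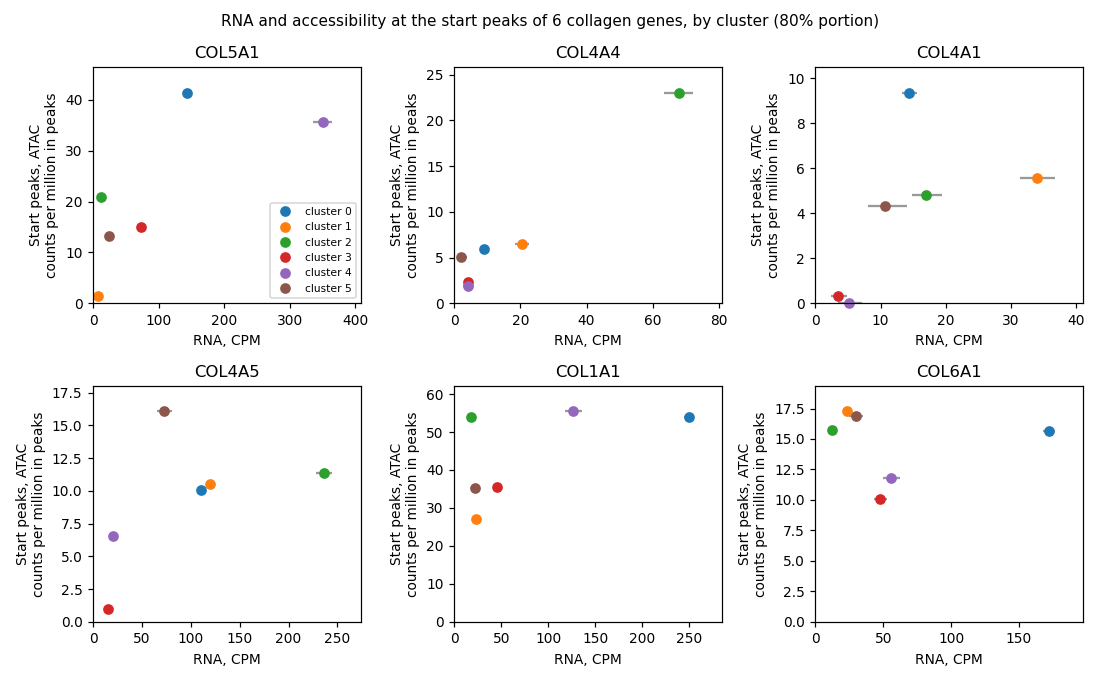
RNA level (x axis, CPM with exact 95% Poisson intervals) and ATAC CPM of the counts in peaks at the start peaks (y axis) of 6 collagen genes in 6 RNA clusters of the 80% portion, 1 point per cluster. For COL5A1, COL4A4, COL4A1 and COL4A5 the clusters with the least accessibility also have low RNA, whereas the starts of COL1A1 and COL6A1 are open in clusters with low RNA. The start of COL5A1 is also open in cluster 2, at 21.0 ATAC CPM, with RNA at 12.2 CPM. Among these genes only COL4A4 has its most accessible start in the cluster with its highest RNA. ATAC values are summed over the start peaks of a gene. For COL4A5 these are 3 peaks, with cluster 4 at 6.515, against 1.45 at the peak shared with COL4A6.

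Genes that make, modify, bind or degrade collagen were compared with the same ratio and minimum. Unlike the collagen genes, they were not taken out before clustering, so they could help to draw the borders. Of 48 such genes with at least 100 UMIs (of 52 listed), 7 were at least 4-fold higher in one cluster, against 5.96% of all genes. Chain hydroxylation and folding had 1 of 19, COLGALT2, a collagen galactosyltransferase, with 9.46 CPM in cluster 0 and 1.45 CPM in the next. PLOD2, a lysyl hydroxylase, was at 572 CPM in cluster 1 and 503 CPM in cluster 4, against 179 to 231 CPM in the others. SERPINH1, the collagen chaperone HSP47, was at 341 CPM in cluster 4, 253 CPM in cluster 1, 161 CPM in cluster 0 and 47.35 to 113 CPM in the others. The 19 genes summed to 2847 CPM in cluster 1, 2758 CPM in cluster 4, 1529 CPM in cluster 0 and 1387 to 1861 CPM in the others. Secretion of procollagen had 0 of 5, with MIA3, MIA2, SEC23A and SEC24D between 45.7 and 112 CPM in all clusters. The fifth, CREB3L1, a transcription factor of secretory genes, was at 66.35 CPM in cluster 4, 47.0 CPM in cluster 0, 37.3 CPM in cluster 3 and 6.19 to 13.3 CPM in the others.

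Processing and cross-linking had 4 of 11. PCOLCE and PCOLCE2, which enhance the cleavage of the procollagen C-propeptide, were at 83.3 and 276 CPM in cluster 1 and at 9.11 and 45.6 CPM in the next. TLL1, a procollagen C-proteinase, was at 59.96 CPM in cluster 5 and 6.47 CPM in the next, and ADAMTS3, a procollagen N-proteinase, was at 11.1 CPM in cluster 0 and 1.45 CPM in the next. LOX, the lysyl oxidase that cross-links chains, was at 227 CPM in cluster 4 and 108 CPM in cluster 0, against 9.87 to 24.5 CPM in the others. The 13 listed genes of this role summed to 482 CPM in cluster 1, 470 CPM in cluster 4 and 333 CPM in cluster 0. In the other clusters they summed to 119 to 210 CPM. Receptors had 1 of 7, DDR2, with 118 CPM in cluster 1 and 20.5 CPM in the next. Degradation had 1 of 6, the gelatinase MMP2, with 83.3 CPM in cluster 0 and 9.54 CPM in the next. In the 20% portion PCOLCE, PCOLCE2, TLL1, DDR2 and MMP2 were again above 4-fold, whereas COLGALT2 was at least 1.83-fold and ADAMTS3 at least 2.40-fold higher, both against the floor of 3 UMIs in a small cluster.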

How the data were processed

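Gene expression and chromatin accessibility were read from nuclei of a mixture of 5 cell lines. The deposited counts are whole numbers of UMIs per gene and of ATAC counts per peak and barcode, which the authors made with Cell Ranger ARC (2.0.0 per the file headers) on hg38. The long-read table was not used here. Members, lists and tests were chosen with earlier results of these data known.

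RNA clusters were made with Seurat 5.3.0 in R 4.3.3, from 2000 variable genes without collagen genes, 30 components and 20 neighbours. The resolution of 0.08 was chosen after the clusters of several seeds had been seen. Nuclei of the 20% portion took the cluster with the most similar mean profile. Scrublet, as run by scanpy 1.11.5, marked the doublets. Levels are summed per cluster and scaled to CPM, and a gene with at least 100 UMIs was called when its highest cluster was 4-fold above the next, with a floor of 3 counts per cluster. Values in every cluster were given for collagen genes with at least 1000 UMIs, for called genes and for their chain partners. The other members were summarised. The code was tested on simulated data. With 1 library per assay and portion there is no test, and the spread between cultures was not measured. Depth was 95455518 and 14346346 UMIs and 63920767 and 12850543 ATAC counts in the 80% and 20% portion. Alternatives were other nuclei, clusters, scalings, minimums, folds and start definitions.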

Additional observations from a re-analysis of the deposited data

How the results depend on the processing

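No paired analysis was possible because each assay had 1 library per portion. The highest summed collagen level of any cluster was 1104 CPM, in cluster 0. It was 1150 without called doublets, 1147 with ATAC clusters, 1118 as a mean over nuclei and 1322 in the 20% portion. At a resolution of 0.05, chosen after seeing the data, it was 1092. The cluster that held the highest level could differ between settings, and in the 20% portion it was cluster 4. In the 20% portion 537 genes were called in place of 1008 (3.18% and 5.96% of 16913). Only 18 start peaks of collagen genes reached 100 counts there, against 57, and 0 were called in place of 3. RNA and start peaks were highest in the same cluster for 5 of 18 collagen genes in place of 9 of 25. For start peaks, shares over all peaks or genes were not computed in that portion. With a fold of 2, 13 of 30 collagen genes and 2685 of all 16913 genes (15.9%) were called. The same fold called 13 of 48 collagen-making genes and 11 of 57 start peaks. With GENCODE starts 1 of 63 start peaks was called. The count of 6 collagen genes stayed between 5 and 7 under the other alternatives: COL6A2 was lost with ATAC clusters, COL25A1 in the 20% portion and without the 1 nucleus with most of its UMIs (added after seeing the data), and COL5A3 was gained without doublets and at the resolution of 0.05. Of 200 values of single genes, 34 moved by more than their interval. At the resolution of 0.05, with 5 clusters, the highest levels fell from 127.6 to 73.4 CPM for COL8A1, from 66.8 to 33.7 CPM for COL1A2 and from 349.8 to 190.1 CPM for COL5A1. In the 20% portion COL9A2, COL8A1, COL25A1 and COL9A1 moved by over 1.5 times. The cause of these changes was not tested. Depth limits the 14 collagen genes with under 100 UMIs and the small clusters 4 and 5 of the 20% portion, with 60 and 55 nuclei.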
